A study of Mus musculus with 12 samples.

Results

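The CCR4-NOT and PAN2-PAN3 complexes are the main cytoplasmic deadenylases of mammalian cells, and 10 of their subunit genes were followed here. These were Cnot1, Cnot2, Cnot3, Cnot6, Cnot6l, Cnot7, Cnot8, Cnot10, Pan2 and Pan3, picked by symbol from the 51467 genes of the count table. All 10 were found, and all 10 were among the 14033 genes on which the tests ran, those that reached 3 CPM in 3 or more libraries. CPM are counts relative to the library size, and the CPM printed here are also scaled between libraries by TMM factors. Wild-type (WT) mouse embryonic stem cells (ESCs) of the V6.5 line were compared with ESCs lacking Dgcr8 (Dgcr8 KO), from a single earlier knockout line, so the genotype and the line cannot be told apart. The titles and genotype labels of all KO libraries name DGCR8, while their source name reads DDX8KO, and the titles were followed. Both genotypes were kept in Knockout DMEM with fetal bovine serum, LIF and the 2i inhibitors PD0325901 and CHIR99021, and both were pulsed for 30 min with 500 uM 4-thiouridine (4sU), which is built into new RNA in place of uridine. The RNA was then divided into a biotin-captured part, which holds the RNA made during the pulse (nascent RNA, 4sU libraries), and a part depleted of ribosomal RNA (total libraries). Each genotype had 3 replicates of each library type, 12 libraries in all. The labels do not say that replicates came from separate cultures, so the p-values measure the spread between these samples, which may be technical.

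Deadenylation, the shortening of the poly(A) tail, is usually the first and slowest step of mRNA decay. CNOT1 is the scaffold of CCR4-NOT. It carries the nucleases CNOT7 or CNOT8 (CAF1 type), which in turn bind CNOT6 or CNOT6L (CCR4 type), and within each of these paralog pairs a complex holds either member. CNOT2 and CNOT3 form the NOT module, and CNOT10 joins the N-terminal part of the scaffold. In PAN2-PAN3 the nuclease is PAN2, and PAN3 is the adaptor that binds poly(A)-binding protein and RNA. MicroRNAs (miRNAs) bound to Argonaute recruit both complexes through the TNRC6 (GW182) proteins, so these subunits act in miRNA repression, while their own mRNAs may also carry miRNA sites. DGCR8 is needed for the processing of primary miRNA transcripts by the Microprocessor.

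In ESCs many miRNAs of the miR-290 and miR-302 clusters share a seed and are known as the ESC-specific cell cycle (ESCC) family. They are shown because their seed was searched for in the deadenylase mRNAs. The mature sequences and positions are those of RefSeq on GRCm38.p6. In the set searched 5 entries carried the seed AAGUGCU, which may not be every mouse miRNA with it. Capitals mark the seed (bases 2 to 8). Levels of these miRNAs were not measured here.
mmu-miR-291a-3p, chr7:3218968-3218989 (+): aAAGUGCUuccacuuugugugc
mmu-miR-294-3p, chr7:3220691-3220712 (+): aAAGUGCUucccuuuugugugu
mmu-miR-295-3p, chr7:3220815-3220837 (+): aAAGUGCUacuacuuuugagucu
mmu-miR-302b-3p, chr3:127545275-127545297 (+): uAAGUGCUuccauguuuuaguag
mmu-miR-302d-3p, chr3:127545665-127545687 (+): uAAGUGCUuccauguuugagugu

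Matches to this seed were counted on the mRNA strand of the longest annotated 3′ UTR of each gene. A 7-base match was AGCACTT or GCACTTA, and an 8-base match held both. Of the 10 genes, 3 held at least 1 such match (Cnot6, Cnot6l and Pan3), against 21.4% of the 11813 tested protein-coding genes with a 3′ UTR. Cnot6 had 1 8-base match and 1 further 7-base match in 3690 bases, Cnot6l had 1 8-base match in 6847 bases and Pan3 had 1 7-base match in 2750 bases. An 8-base match was present in 3.68% of all the tested protein-coding genes. The 30-base stretches with these matches are printed 5′ to 3′ with the match in capitals (mm10), and all 4 lie within exons of the count table.
Cnot6 8-base match, chr11:49673043-49673072 (-): gtggtgccaggagaggggaggAGCACTTAc
Cnot6 7-base match, chr11:49672193-49672222 (-): ccaggaaaatttatttcatattAGCACTTt
Cnot6l 8-base match, chr5:96076657-96076686 (-): aagtcatttgcacattatcaaAGCACTTAa
Pan3 7-base match, chr5:147547031-147547060 (+): ttggaggtcaggacagactccaAGCACTTg

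These UTRs were long. The Cnot6l UTR lay at percentile 98.5 of length among the tested protein-coding genes, that of Cnot6 at percentile 89.8 and that of Pan3 at percentile 81.1. Among genes whose 3′ UTR was within 1.25 times the length of that of Cnot6l, 67.0% held a 7- or 8-base match and 14.9% an 8-base match. The shares for the length of Cnot6 were 44.4% and 7.75%, and 37.4% of genes of the length of Pan3 held a 7- or 8-base match. With the 6 bases GCACTT alone, Cnot7 and Cnot10 each had 1 further match, which made 5 of the 10 genes, against 34.0% of all tested protein-coding genes. Cnot1, Cnot2, Cnot3, Cnot8 and Pan2 held none of these letters in their 3′ UTRs of 283 to 1039 bases. A match is a description of sequence and not a shown binding site.

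**Figure D1:**
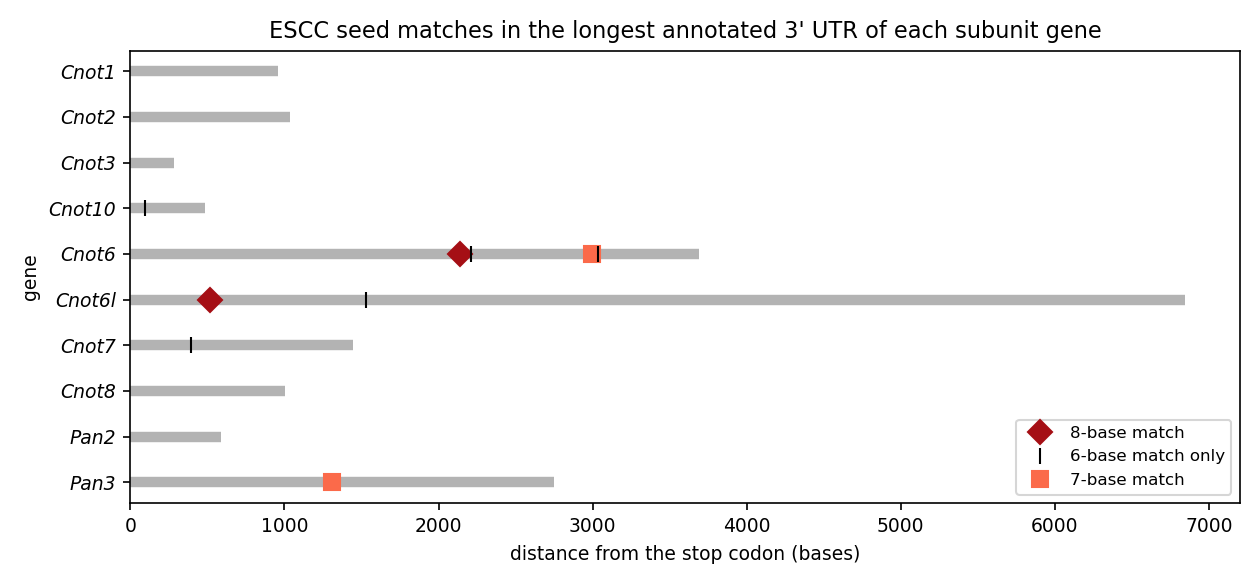
Longest annotated 3′ UTR of each of the 10 genes (grey bars, in bases from the stop codon) with the matches to the ESCC seed (diamonds: 8 bases; squares: 7 bases; ticks: 6 bases only). The 8-base matches lay 2142 bases from the stop codon in Cnot6 and 515 bases from it in Cnot6l.

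Total counts ranged from 4593914 to 6005526 in 4sU libraries and from 6873708 to 9295245 in total libraries. Dgcr8 itself had 101, 111 and 92.5 CPM in WT total libraries and 33.6, 34.1 and 32.0 CPM in Dgcr8 KO total libraries, with 110, 118 and 107 CPM against 71.2, 77.3 and 86.8 CPM in 4sU libraries. All KO libraries lay below all WT libraries of their type, and the table has 1 count per gene, so the deleted part could not be read apart from the rest. All 6 ESC markers were present in every group (Pou5f1, Sox2, Nanog, Esrrb, Zfp42, Klf4), with summed levels of 3135 to 3264 CPM in WT total, 3300 to 3381 CPM in KO total, 4515 to 4560 CPM in WT 4sU and 5228 to 5867 CPM in KO 4sU libraries. The sums hold members of opposite direction. In total RNA 3 of the 6 were called higher in KO (Pou5f1, Sox2, Zfp42) and 3 lower (Nanog, Esrrb, Klf4), at an adjusted p under 0.05 in limma. The shares of all tested genes were 27.2% higher and 36.7% lower. In nascent RNA all 6 were called higher, against 28.3% of all tested genes. The 5 fibroblast markers summed to at most 3.76 CPM and the 3 endoderm markers to at most 5.34 CPM in any library. Of the 3 primed markers, Fgf5 was at 0 or 1 count, Otx2 was higher and Pou3f1 lower in KO, and their sum was 21.5 to 23.2 CPM in WT total against 26.1 to 30.9 CPM in KO total libraries. The part of these marker shifts in the deadenylase values was not tested, and in bulk RNA fewer cells of a type and less RNA per cell cannot be told apart.

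All 10 subunit genes were expressed in WT ESCs. Levels of different genes were compared as TMM-scaled CPM per kb of exon. In WT total RNA the scaffold gene Cnot1 was highest, at 165 ± 5.11 CPM per kb (SD, n = 3), followed by Cnot10 at 57.9 ± 1.77 and Cnot2 at 52.0 ± 2.58 CPM per kb. The CAF1-type nuclease genes Cnot8 and Cnot7 came next at 36.3 ± 0.472 and 34.7 ± 2.92 CPM per kb, with overlapping ranges over libraries. Pan2 (23.4 ± 1.09 CPM per kb), Cnot3 (20.98 ± 3.80 CPM per kb) and Cnot6 (18.6 ± 0.610 CPM per kb) formed a run in which each overlapped its neighbour. Pan3 followed at 16.3 ± 0.237 CPM per kb, and Cnot6l was lowest at 4.87 ± 0.394 CPM per kb. In nascent RNA of WT cells Cnot1 again led, at 61.9 ± 3.89 CPM per kb, but Cnot3 was second at 34.3 ± 3.31 CPM per kb and Cnot10 was seventh at 20.6 ± 0.498 CPM per kb.

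In total RNA of Dgcr8 KO cells the order of the highest 3 was unchanged (Cnot1, Cnot10, Cnot2), and Cnot6 followed Cnot2 at 39.1 ± 1.71 CPM per kb. It lay above Cnot7 (34.6 ± 0.672 CPM per kb) and Cnot8 (29.5 ± 1.35 CPM per kb), and no neighbours in the KO total order overlapped. Cnot6l remained the lowest, at 9.06 ± 0.422 CPM per kb.

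**Figure D2:**
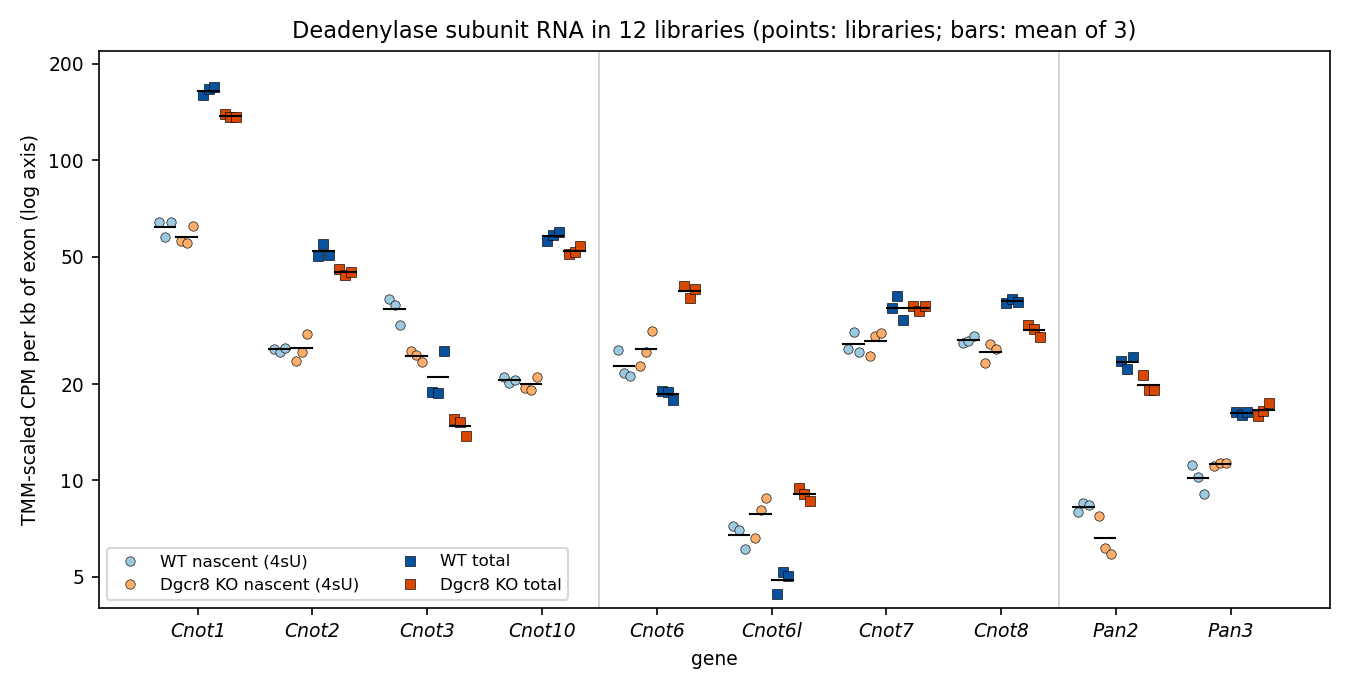
Level of each gene in each of the 12 libraries, as TMM-scaled CPM per kb of exon on a log axis (light circles: 4sU; dark squares: total; blue: WT; orange: Dgcr8 KO; bars: mean of 3). Cnot6 and Cnot6l total RNA was higher in every KO library than in every WT library, with means of 39.1 against 18.6 and 9.06 against 4.87 CPM per kb.

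To ask how the mRNAs of the deadenylases differed between the WT and Dgcr8 KO lines, total RNA was compared between genotypes. The call was an adjusted p under 0.05 (limma voom over 14033 genes, as throughout). Of the 10 genes, 2 were higher in Dgcr8 KO, Cnot6 and Cnot6l, against 27.2% of all tested genes called higher. There were 6 lower ones (Cnot1, Cnot2, Cnot3, Cnot8, Cnot10 and Pan2), against 36.7% of all tested genes called lower. With a further limit of 1 on the absolute log2 change only Cnot6 remained, against 17.2% of all tested genes in either direction. The median log2 change was -0.18 over the 10 genes and -0.09 over all tested genes. In nascent RNA 0 of 10 were called higher in limma, against 28.3% of all tested genes. Cnot6 and Cnot6l had an unadjusted limma p under 0.05, a rule whose share of all tested genes was not counted. By edgeR, which called 8017 of 14033 genes in either direction, Cnot6l was the 1 called higher. In limma 2 were called lower, Cnot3 and Pan2, against 28.0% of all tested genes. The nascent count in either direction was thus 2, and it was 4 without WT replicate 1 or KO replicate 1 and 1 without KO replicate 2. The median log2 change in nascent RNA was -0.02 both over the 10 genes and over all tested genes. With the fold limit 0 of 10 were called in nascent RNA by limma or edgeR, against 14.8% of all tested genes, since none of the 10 log2 changes was beyond 1 in size.

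The change of the total to 4sU ratio between genotypes, the interaction of library type and genotype, was the measure of a change in stability. Cnot6 and Cnot6l, 2 of the 10, were called higher in stability in Dgcr8 KO, against 5.02% of all tested genes. None of the 10 was called lower, against 11.1% of all tested genes, and 0 of 10 passed the fold limit in limma or edgeR, against 1.76%, since the log2 changes were all under 1 in size. The median log2 change in stability was -0.07 over the 10 genes and -0.09 over all tested genes. Cnot1 and Cnot2 were lower in stability at an unadjusted p under 0.05 in limma. The share of all tested genes under that rule was not counted. With adjustment neither passed in limma (adjusted p = 0.110 and 0.120) or edgeR (adjusted p = 0.203 and 0.107). With RLE scaling their log2 changes in stability were -0.07 and -0.13 (limma adjusted p = 0.555 and 0.411).

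**Figure D3:**
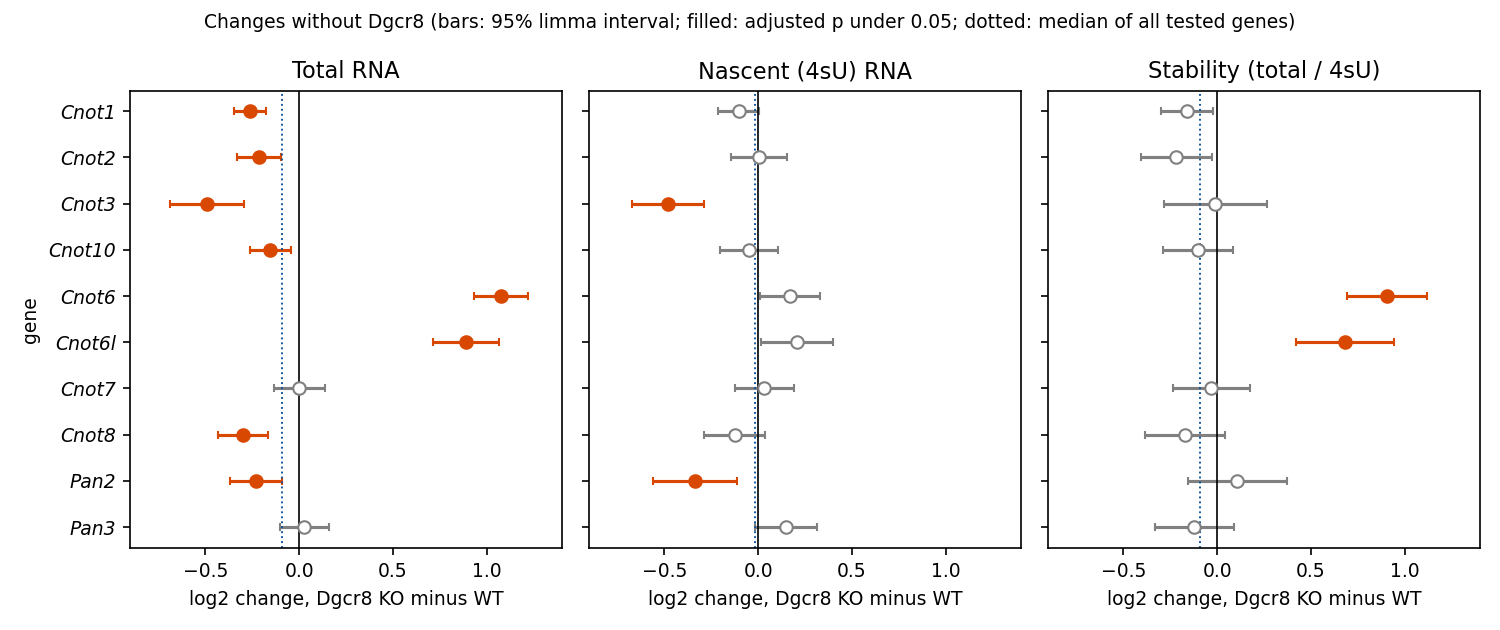
Log2 change of each gene between Dgcr8 KO and WT in total RNA, nascent RNA and stability (points), with the 95% confidence interval of limma (bars), filled where the adjusted p was under 0.05. Cnot6 (1.07) and Cnot6l (0.89) stand to the right in total RNA and remain there in stability (0.90 and 0.68), while their nascent changes were 0.17 and 0.21.

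Cnot6 (ENSMUSG00000020362.13, mm10 chr11:49671503-49712723, minus strand), a CCR4-type nuclease gene, changed most among the 10 in total RNA. It had 109, 108 and 103 CPM in WT total libraries and 232, 213 and 228 CPM in KO total libraries. Every KO library was above every WT library, a 2.11-fold difference (log2 change 1.07 ± 0.07 SE, 95% interval 0.93 to 1.22, adjusted p = 1.43e-14). In 4sU libraries it had 147, 124 and 122 CPM in WT and 130, 144 and 168 CPM in KO, and these ranges overlapped. The nascent log2 change was 0.17 ± 0.08 SE, with an adjusted p of 0.0642 in limma and 0.0541 in edgeR. It ranged from 0.09 to 0.27 over left-out replicates, and it passed the threshold without WT replicate 1 (adjusted p = 0.0152) and without KO replicate 1 (adjusted p = 0.00778), while it was 0.11 without WT replicate 3 and 0.09 without KO replicate 3. Stability was 1.87-fold higher (log2 change 0.90 ± 0.11 SE, 95% interval 0.69 to 1.12, adjusted p = 1.82e-07).

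Cnot6l (ENSMUSG00000034724.17, chr5:96070333-96161990, minus strand), the paralog of Cnot6 with the same CCR4-type nuclease, followed the same pattern from a lower level. Its total RNA was 39.0, 45.6 and 44.3 CPM in WT and 83.6, 79.8 and 76.2 CPM in KO libraries. The groups did not overlap, and the difference was 1.85-fold (log2 change 0.89 ± 0.09 SE, 95% interval 0.71 to 1.07, adjusted p = 1.30e-10). Nascent RNA was 63.4, 61.9 and 53.7 CPM in WT and 58.2, 71.3 and 77.9 CPM in KO libraries. These overlapped, and the nascent log2 change of 0.21 ± 0.09 SE missed the threshold in limma (adjusted p = 0.0578) and passed it in edgeR (adjusted p = 0.0433). It was 0.34 without KO replicate 1 (adjusted p = 0.00342), 0.13 without WT replicate 3 (adjusted p = 0.294) and 0.13 without KO replicate 3 (adjusted p = 0.267). Stability was 1.60-fold higher (log2 change 0.68 ± 0.13 SE, 95% interval 0.42 to 0.94, adjusted p = 0.00024). No stretch of 50 bases, the read length, was shared by the exons of Cnot6 and Cnot6l, so uniquely mapped reads of the pair were counted apart.

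The ratio of Cnot6 to Cnot6l is free of the scaling of libraries. Per kb it was 3.83 ± 0.398 in WT and 4.32 ± 0.251 in KO total libraries (SD, n = 3). On the log2 scale the ratio differed by 0.18 in total RNA (p = 0.3) and by -0.03 in nascent RNA (p = 0.7), by exact permutation over libraries (two-sided). With 3 libraries against 3 such a test cannot give a p below 0.1, so it cannot reach 0.05.

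Cnot7 (ENSMUSG00000031601.16, chr8:40492540-40515847, minus strand) and Cnot8 (ENSMUSG00000020515.13, chr11:58104229-58118594, plus strand), encode the CAF1-type nucleases. Cnot7 total RNA was 132, 144 and 122 CPM in WT and 134, 130 and 134 CPM in KO libraries, with overlapping ranges. Its log2 change was 0.00 with a 95% interval of -0.13 to 0.14 (adjusted p = 0.989), and its sign turned with the test and with left-out replicates. Cnot8 total RNA was 75.4, 77.3 and 75.9 CPM in WT and 64.3, 62.4 and 58.7 CPM in KO libraries. All KO libraries lay below the WT libraries, and the log2 change was -0.30 ± 0.07 SE (adjusted p = 0.00021). Nascent Cnot7 RNA was 98.8, 112 and 97.0 CPM in WT and 94.2, 108 and 111 CPM in KO libraries, and nascent Cnot8 RNA was 56.6, 57.1 and 59.2 CPM in WT and 48.8, 55.9 and 53.9 CPM in KO libraries. The Cnot7 ranges overlapped and those of Cnot8 did not. In nascent RNA neither was called, with log2 changes of 0.03 for Cnot7 (adjusted p = 0.740) and -0.13 for Cnot8 (adjusted p = 0.187, or 0.0494 with RLE scaling). In stability the log2 changes were -0.03 for Cnot7 (adjusted p = 0.886) and -0.17 for Cnot8 (adjusted p = 0.289).

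The log2 ratio of Cnot7 to Cnot8 was 0.81, 0.90 and 0.69 in WT total libraries and 1.06, 1.06 and 1.19 in KO total libraries. The groups did not overlap, and the difference of 0.30 had a p of 0.1 in the exact permutation test (two-sided), the smallest it allows. In nascent RNA the difference was 0.15 (exact two-sided permutation p = 0.3). Of the 50-base stretches in the annotated transcripts of Cnot8, 7.82% also occur in transcripts of another gene on either strand, all of them in Gm18860, and none occurs in Cnot7. The shares found in other genes were 2.76% for Cnot7, mainly Zdhhc2, and 4.76% for Cnot1, mainly Gm6158.

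Cnot1 (ENSMUSG00000036550.16, chr8:95719451-95807464, minus strand), the scaffold gene, had 1338, 1399 and 1421 CPM in WT total and 1171, 1150 and 1143 CPM in KO total libraries. The KO libraries were all lower, with a log2 change of -0.26 ± 0.04 SE (adjusted p = 2.17e-06). In 4sU libraries it had 537, 482 and 540 CPM in WT and 469, 463 and 522 CPM in KO, which overlapped (log2 change -0.10, adjusted p = 0.0961). This nascent change passed the threshold in 5 of 15 alternative analyses, among them RLE scaling and leaving out WT replicate 2 (adjusted p = 0.0157) or KO replicate 3 (adjusted p = 0.0364).

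In the NOT module, Cnot3 (ENSMUSG00000035632.16, chr7:3645352-3661109, plus strand) was lower in both kinds of library, and Cnot2 (ENSMUSG00000020166.15, chr10:116485161-116581511, minus strand) in total RNA. Cnot3 total RNA was 53.2, 52.8 and 71.6 CPM in WT and 43.8, 42.9 and 38.8 CPM in KO (log2 change -0.49 ± 0.10 SE, adjusted p = 5.04e-05). Its nascent RNA was 104, 100.0 and 86.1 CPM in WT and 71.6, 69.4 and 66.2 CPM in KO (log2 change -0.48 ± 0.09 SE, adjusted p = 5.79e-05). No ranges overlapped, and WT replicate 3 stood above the other WT replicates in total RNA. The log2 change of Cnot3 stability was -0.01 (95% interval -0.29 to 0.26), and it was 0.22 without that replicate. Of the 50-base stretches in the annotated transcripts of Cnot3, 13.5% also occur in transcripts of other genes on either strand, mainly Gm9207 and Leng1. Whether reads from these stretches mapped uniquely was not tested.

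Cnot2 total RNA was 175, 191 and 176 CPM in WT and 160, 153 and 156 CPM in KO libraries. These did not overlap (log2 change -0.21 ± 0.06 SE, adjusted p = 0.00185). Nascent Cnot2 RNA was 89.7, 88.0 and 90.5 CPM in WT and 82.2, 87.7 and 100.1 CPM in KO libraries, so the KO libraries spread to both sides of the WT ones. It had a log2 change of 0.00 (95% interval -0.15 to 0.16), with a sign that turned under RLE and upper-quartile scaling. Cnot10 (ENSMUSG00000056167.7, chr9:114585878-114640184, minus strand) had 181, 188 and 192 CPM in WT total and 164, 167 and 174 CPM in KO total libraries. The log2 change of Cnot10 was -0.15 ± 0.05 SE (adjusted p = 0.0115), and this call was lost without KO replicate 1 (adjusted p = 0.0663) or KO replicate 2 (adjusted p = 0.0515), with library size as the only scaling (adjusted p = 0.0955) and in DESeq2 (adjusted p = 0.0783). Its nascent RNA was 68.0, 64.8 and 66.7 CPM in WT and 63.0, 62.0 and 68.2 CPM in KO libraries, with overlapping ranges (log2 change -0.05, adjusted p = 0.590). The log2 change in stability was -0.10 for Cnot10 (95% interval -0.29 to 0.08) and -0.22 for Cnot2 (95% interval -0.41 to -0.03), neither called.

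Of the PAN2-PAN3 genes, the nuclease gene was lower in KO and the adaptor gene was not called. Pan2 (ENSMUSG00000005682.9, chr10:128303335-128321353, plus strand), which encodes the nuclease, had 105, 98.8 and 108 CPM in WT total and 95.2, 85.1 and 85.0 CPM in KO total libraries. All KO libraries were lower (log2 change -0.23 ± 0.07 SE, adjusted p = 0.00334). Its nascent RNA was 35.4, 37.9 and 37.2 CPM in WT and 34.4, 27.3 and 26.3 CPM in KO libraries, where KO replicate 1 lay close to WT (log2 change -0.34 ± 0.11 SE, adjusted p = 0.0100). The nascent call of Pan2 was lost without KO replicate 2 (adjusted p = 0.0678), without KO replicate 3 (adjusted p = 0.0971) and without a filter on low counts (adjusted p = 0.0749). Pan3 (ENSMUSG00000029647.15, chr5:147430161-147548502, plus strand), the adaptor gene with a 7-base seed match, had 95.9, 93.4 and 95.7 CPM in WT total and 93.0, 96.0 and 102 CPM in KO total libraries. These overlapped (log2 change 0.03, 95% interval -0.10 to 0.16, adjusted p = 0.735). Its nascent RNA was 65.3, 60.0 and 53.0 CPM in WT and 65.0, 66.2 and 66.2 CPM in KO libraries, which overlapped (log2 change 0.15 ± 0.08 SE, adjusted p = 0.118, or 0.0471 without WT replicate 1). Neither gene was called in stability, where the log2 change of Pan2 was 0.11 (95% interval -0.16 to 0.37). The stability change of Pan3 was -0.12 on the log2 scale (95% interval -0.33 to 0.09).

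Relative stability within a genotype was described by the log2 ratio of total to 4sU CPM in same-numbered libraries, from which the median over all tested genes was subtracted. In WT cells Pan2 (1.39 ± 0.11, SD, n = 3), Cnot10 (1.39 ± 0.06) and Cnot1 (1.33 ± 0.10) were high, at percentiles 90.9, 90.9 and 89.6 of the tested genes. Cnot2 followed at 0.92 ± 0.08, Pan3 at 0.59 ± 0.15, and Cnot8 and Cnot7 at 0.31 ± 0.04 and 0.28 ± 0.05. Cnot6 (-0.38 ± 0.11), Cnot6l (-0.56 ± 0.21) and Cnot3 (-0.80 ± 0.39) lay below the median. In KO cells Cnot6 was at 0.61 ± 0.19, or percentile 69.4 of the tested genes against 39.2 in WT. Cnot6l was at 0.22 ± 0.27 in KO, or percentile 56.5 against 34.6 in WT. Among protein-coding genes alone the KO and WT percentiles were 64.9 and 30.2 for Cnot6, and 49.97 and 25.2 for Cnot6l. The KO value of Cnot6l spread from -0.02 to 0.51 over replicates and turned to -0.05 when the median of genes with 3 CPM in all 12 libraries was subtracted. Cnot3 was at -0.72 ± 0.03, Cnot1 at 1.26 ± 0.10, Cnot10 at 1.38 ± 0.03 and Pan2 at 1.59 ± 0.13.

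**Figure D4:**
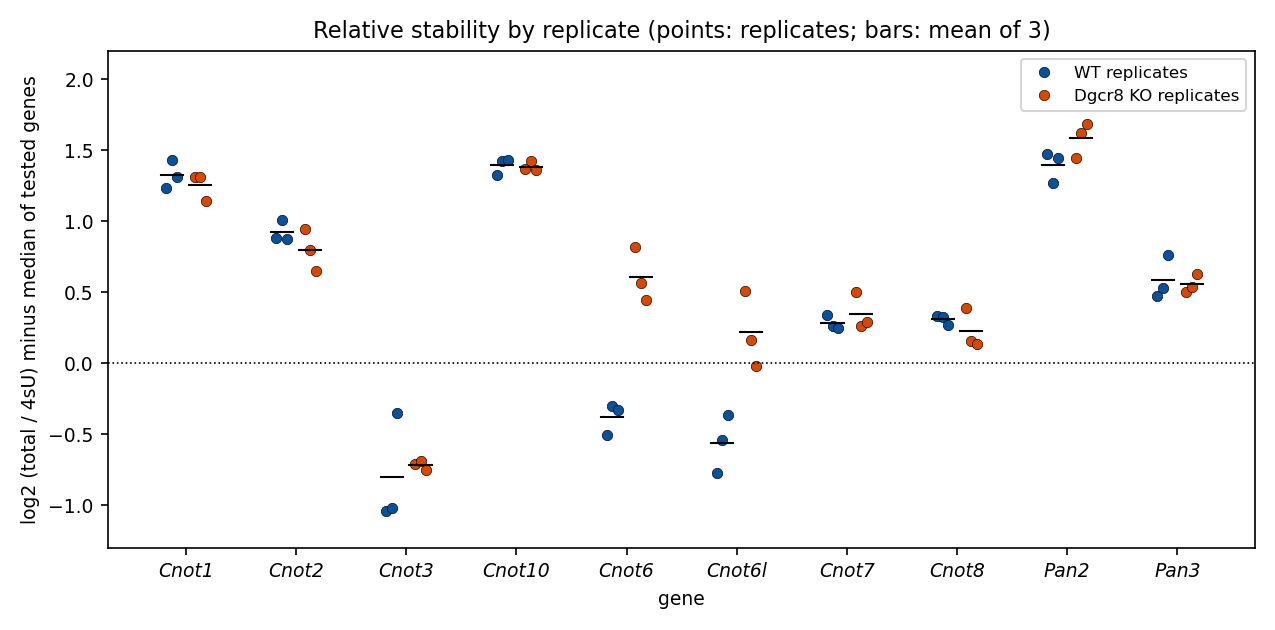
Log2 ratio of total to 4sU CPM in each pair of same-numbered libraries, minus the median of all tested genes (dotted line), for WT (blue) and Dgcr8 KO (orange), with the mean of 3 as a bar. The KO points of Cnot6 and Cnot6l all lie above their WT points, and WT replicate 3 of Cnot3 (-0.35) lies above the other WT points (-1.04 and -1.02).

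Over the 12 libraries the log2 CPM of Cnot6 and Cnot6l had a Pearson r of 0.90, that of Cnot1 and Cnot10 one of 0.996, and that of Cnot1 and Cnot6 one of 0.07. These are descriptions, since the libraries share their type and genotype. The tested genes outside the 10 with the pattern most like that of Cnot1 were Ttc27, Dnajc10 and Bub1b (r rounded to 0.998 for each), and those most like Pan2 were Aamp, Rfc5 and Sucla2 (r rounded to 0.996 for each), over the same 12 libraries.

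Of the 3 other CCR4-NOT subunits (Cnot4, Cnot9, Cnot11), Cnot9, which encodes the subunit that binds TNRC6 proteins, was lower in total RNA, at 162, 174 and 165 CPM in WT and 126, 128 and 120 CPM in KO (log2 change -0.42 ± 0.06 SE, adjusted p = 1.38e-07). Its nascent log2 change was -0.07 (adjusted p = 0.381), and its stability was lower by 0.35 on the log2 scale (log2 change -0.35 ± 0.09 SE, adjusted p = 0.00497). Cnot11, whose product binds CNOT10, was lower in nascent RNA (log2 change -0.19, adjusted p = 0.0280) and was not called in total RNA (-0.07, adjusted p = 0.363). Cnot4, an E3 ubiquitin ligase gene, was called in none of the 3 comparisons.

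Among 7 genes listed as other deadenylases or relatives of their nucleases, 1 was higher and 3 were lower in total RNA. The shares of all tested genes called were 27.2% and 36.7%. Parn, a poly(A)-specific ribonuclease gene, was higher in total RNA (log2 change 0.26 ± 0.07 SE, adjusted p = 0.00129) and in nascent RNA (0.25 ± 0.09 SE, adjusted p = 0.0154). Noct, which encodes nocturnin of the CCR4-type nuclease family, fell from 55.3, 56.2 and 50.7 CPM to 30.1, 28.0 and 28.4 CPM in total RNA (log2 change -0.90 ± 0.08 SE, adjusted p = 2.97e-11), with a nascent log2 change of -0.77 ± 0.07 SE (adjusted p = 1.26e-11). Toe1 and Pde12 were lower in total RNA, by log2 changes of -0.19 each (adjusted p = 0.0376 and 0.0178). Angel1, Angel2 and Pnldc1 were not called in any comparison, and none of the 7 was called in stability in limma or edgeR, nor had an unadjusted p under 0.05. In stability limma called 5.02% of all tested genes higher and 11.1% lower.

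Of 9 genes for partners of the deadenylases, 8 were tested and Btg4 had 0 counts in every library, which allows up to 3 counts in each. In total RNA 3 were higher and 2 lower, against 27.2% and 36.7% of all tested genes. The higher ones were Tnks1bp1, which encodes a CCR4-NOT-associated protein (log2 change 0.50 ± 0.06 SE, adjusted p = 2.39e-08), and the genes of the antiproliferative CAF1 binders Btg2 (0.43 ± 0.09 SE, adjusted p = 6.71e-05) and Tob1 (0.24 ± 0.08 SE, adjusted p = 0.00683). The lower ones encode cytoplasmic poly(A)-binding proteins, Pabpc1 (-0.68 ± 0.05 SE, adjusted p = 1.46e-13) and Pabpc4 (-0.92 ± 0.10 SE, adjusted p = 1.65e-09). Both were also lower in nascent RNA, with log2 changes of -0.50 for Pabpc1 (adjusted p = 1.79e-10) and -0.66 for Pabpc4 (adjusted p = 3.95e-06). In stability 1 of the 8 was called, Tnks1bp1, which was higher (log2 change 0.38 ± 0.11 SE, adjusted p = 0.0154). The shares of all tested genes called in stability were 5.02% higher and 11.1% lower. Tob2, Btg1 and Btg3 were not called in total RNA. In nascent RNA Tob1 (log2 change 0.37, adjusted p = 9.57e-07) and Btg2 (0.26, adjusted p = 0.00451) were also higher, and Btg1 was lower (-0.20, adjusted p = 0.0325). That made 2 of the 8 higher and 3 lower in nascent RNA, against 28.3% and 28.0% of all tested genes.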

How the data were processed

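The authors deposited raw, unscaled read counts for each gene. By the labels, the file header and the study's methods, reads (single-end, 50 bases, stranded kits) were trimmed with cutadapt 1.14, mapped uniquely to mm10 with STAR 2.5.3a and counted with featureCounts 1.5.3 (strand setting 2) on GENCODE M14 without rRNA genes. Spike-in rows (92) held 1 count, so all levels are relative. Symbols and 3′ UTRs came from GENCODE M21 of the same build (51274 identifiers matched).

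Genes with at least 3 CPM in at least 3 libraries were tested as in the study, with limma 3.58.1 (voom; R 4.3.3) on TMM-scaled counts (edgeR 4.0.16). A single model over 12 libraries held genotype, library type and the interaction, with Benjamini-Hochberg adjustment over all 14033 genes. Total to 4sU ratios used a pseudocount of 0.5 CPM and paralog ratios none. Scripts were tested on simulated data. Alternatives were edgeR quasi-likelihood, DESeq2 1.42.0, limma-trend, other scalings and filters, replicate blocks and leaving out replicates. The 10 genes and the lists were chosen with earlier results of these data known, and the named genes are these 10, Dgcr8, the lists, the markers and the 3 most similar patterns for Cnot1 and Pan2. Genes that share sequence with a member, and the patterns most like Cnot6 and Cnot6l, were named after their values were seen. Replicates differed by more than counting noise (chi-square per degree of freedom at least 1.58). Per the labels each RNA sample was divided into its 4sU and total parts, so a replicate block paired same-numbered libraries of a genotype, although the labels give only the number. Their deviations correlated at 0.018 to 0.116. Count limits cover counting error only.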

Additional observations from a re-analysis of the deposited data

Results flagged for a closer look

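In 9 of the genes fitted from the lists and markers, the total and the nascent RNA changed by different amounts between genotypes, by the interaction test of limma (adjusted p under 0.05). By the same test 5.02% of all tested genes were called higher and 11.1% lower. The 9 were 2 of the 10 genes, 1 of 3 other CCR4-NOT subunits, 1 of 8 tested partners, Dgcr8 and 4 of 6 ESC markers. The 7 genes listed as other deadenylases and the 2 tested primed markers held none. Cnot6 differed by 0.90 and Cnot6l by 0.68 on the log2 scale, higher in total than in nascent RNA, and both kept their call in all 16 alternative analyses. Among genes outside the 10, Tnks1bp1 differed by 0.38, Cnot9 by -0.35 and Dgcr8 by -1.09. Of the ESC markers, Klf4 differed by -0.55, Esrrb by -0.45, Nanog by -0.34 and Sox2 by -0.19. What underlies these differences was not tested.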

How the results depend on the processing

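Each of the 30 changes (10 genes, 3 comparisons) was recomputed under 15 or 16 alternatives, 460 values in all. Of these, 412 kept direction and side of the threshold, 7 lost the call, 16 gained it and 25 turned sign. The calls of Cnot6 and Cnot6l in total RNA and stability were kept under all of them, with log2 changes of 1.04 to 1.13 and 0.82 to 0.94 in total RNA and 0.79 to 0.99 and 0.52 to 0.80 in stability. The replicate numbers did not pair the genotypes (correlations of deviations of -0.090 to 0.082). With a replicate block 4 of the 10 genes were called in nascent RNA against 2 without it, Cnot6 and Cnot6l being added. Of all 14033 tested genes 8161 were called in nascent RNA with this block and 7898 without it. The replicate block of same-numbered 4sU and total libraries changed no stability call.

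The count called in nascent RNA was also 4 with RLE scaling and with library size only, and 1 with no filter. Over all genes these settings called 8132 and 7809 of 14033 and 8487 of 30975. Single left-out replicates gave 1 to 4 genes in nascent RNA, 7 to 8 in total RNA and 2 in stability. Over all 13725 to 13821 genes then tested, the calls were 6872 to 7369, 8221 to 8495 and 1644 to 1994. The sign changes were of Cnot2, Cnot3 and Cnot7 in comparisons in which they were not called. Cnot7 in total RNA turned to -0.00246 with edgeR and to -0.00855, -0.0716 and -0.00441 without WT replicate 1, WT replicate 3 and KO replicate 1. In nascent RNA with DESeq2, RLE and upper-quartile scaling, Cnot2 turned to -0.0484, -0.0521 and -0.0443 and Cnot7 to -0.0280, -0.0247 and -0.0168, with Cnot2 at -0.0107 and -0.0573 without WT replicate 2 and KO replicate 3 and Cnot7 at -0.00951 without WT replicate 3. In stability under the same 3 settings Cnot3 turned to 0.0725, 0.0782 and 0.0557 and Cnot7 to 0.0570, 0.0575 and 0.0346. Cnot3 was also 0.0149 with library size only, 0.00752 with no filter, 0.000462 with 3 CPM in all libraries, and 0.224 and 0.00188 without WT and KO replicate 3, and Cnot7 was 0.00584 without KO replicate 2. Over all left-out replicates the highest or lowest values on the other side of 0 were 0.0564 for Cnot7 in total RNA, 0.0778 for Cnot2 and 0.114 for Cnot7 in nascent RNA, and -0.135 for Cnot3 and -0.118 for Cnot7 in stability.

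The median total to 4sU ratio of the 10 genes (0.45 in WT, 0.58 in KO) was 0.18 and 0.31 when the subtracted median came from genes with 3 CPM in all libraries, where Cnot6l (-0.0541) and Cnot8 (-0.0449) in KO turned sign, and 0.24 and 0.37 when it came from protein-coding genes. Without single replicates it was 0.42 to 0.47 in WT and 0.54 to 0.61 in KO. The nascent Cnot6 to Cnot6l log2 ratio difference ranged from -0.0973 to 0.00892, at 0.00892 without WT replicate 1 and 0.00880 without KO replicate 2. With 6 bases as the seed match 5 genes held one, against 3. The causes were not tested. Nascent counts of 138 to 220 reads per library for Pan2 and 291 to 409 for Cnot6l limit what small changes can be seen.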

Other observations

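For Cnot6 and Cnot6l, the genes with the most similar patterns over the 12 libraries were looked up after the values of these genes had been seen. Those nearest to Cnot6 were Atrn (Pearson r 0.98), Zfp704 (0.97) and Spryd3 (0.97), and those nearest to Cnot6l were Cdk19, Tmem245 and Phc3 (0.96 each). In their longest 3′ UTRs, Atrn held 1 7-base match to the ESCC seed in 4392 bases, Zfp704 held 2 in 11767 bases and Spryd3 held 0 in 1051 bases. Cdk19 held 3 7-base matches in 4015 bases, Tmem245 held 6 and 2 8-base matches in 13324 bases, and Phc3 held 5 and 1 8-base match in 7965 bases. Among tested protein-coding genes with a 3′ UTR within 1.25 times the length, a 7- or 8-base match was held by 50.8% for Atrn, 88.9% for Zfp704, 15.9% for Spryd3, 46.4% for Cdk19, 87.0% for Tmem245 and 68.7% for Phc3. The shares rest on 23 genes for Tmem245, 45 for Zfp704 and 195 for Phc3, and on 966 to 1862 for the others. The 6 genes nearest to Cnot1 and Pan2 held no match, in 3′ UTRs of 114 to 1707 bases, where 1.32% to 23.3% of genes of like length held one. The libraries share type and genotype, so these correlations are descriptions.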
